A study of Bos taurus with 17 samples.

Results

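Protein kinase A is the enzyme through which most effects of cyclic AMP (cAMP) reach the transcription machinery. In the resting holoenzyme, a dimer of regulatory subunits (PRKAR1A, PRKAR1B, PRKAR2A, PRKAR2B) holds catalytic subunits (PRKACA, PRKACB) inactive. Binding of cAMP to the regulatory subunits frees the catalytic ones, which phosphorylate CREB1 and CREM among many other substrates, and the small inhibitor PKIA binds free catalytic subunits. In the ovarian follicle, gonadotropins act largely through cAMP. Inhibitory signals from somatic cells that reach the oocyte through gap junctions help to keep it in prophase I. The transcripts of these 10 genes are described here in bovine cumulus cells at 3 stages of oocyte competence, out of 19806 gene names and unnamed transcripts that have a probe on the array.

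The probes were taken by gene symbol, or by the gene named in the description where the array's design gives only a LOC number, which found 10 probes of 9 genes. CREM is listed on the array under a clone-collection number, and its 3 probes were taken because their RefSeq transcript is that of CREM. A further 4 probes, of PRKAR2A, PRKAR2B, PRKACB and CREB1, are named on the array only for an expressed sequence tag. They are described beside the others but were not used to count genes.

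Cumulus cells are the somatic cells that enclose the oocyte. NC1 cells surrounded prophase I oocytes of poor developmental competence from 3 to 6 mm follicles of 6 prepubertal calves aged 3 to 6 months. C1 cells surrounded competent prophase I oocytes of 6 adult cows of different ages, and both had a compact cumulus and were aspirated after slaughter. C2 cells came from expanded complexes with metaphase II oocytes of 5 non-lactating Holstein cows aged 3 to 5 years, by ovum pick up from follicles above 8 mm, 60 h after prostaglandin F2α. These cows also had progestagen implants and a porcine FSH/LH preparation for superovulation. Age thus cannot be told apart from stage between NC1 and C1, nor can hormone treatment, follicle size and the way of collection between C1 and C2.

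The study's methods name 17 animals, and there are as many Agilent 1-colour arrays, but the labels do not tie an array to an animal. The arrays lay on 6 slides that each carried 1 NC1 and 1 C1 array and, on 5 of them, 1 C2 array. Median intensity ran from 64.2 to 208 units over the arrays, and 66.2% to 82.8% of the 21475 probes were well above background. Levels are given as log2 scaled signal, where 0 is the median probe of the array, and the signal of 1 probe cannot be set against that of another. A probe was tested if it was present on 80% or more of the NC1, of the C1 and of the C2 arrays, which held for 13865 probes. The test was that of limma, with Benjamini-Hochberg adjustment over all of them and a threshold of 0.01 on the adjusted p. At this threshold 28.1% of the tested probes differed at C2 against C1, 28.1% at C2 against NC1 and 0.0577% at C1 against NC1. The C2 arrays were less alike than those of the other stages. The SD of the log2 difference between a pair of arrays reached 1.27 within C2, against 0.694 within NC1 and 0.756 within C1, while the closest C2 pairs, replicates 1 and 5 at 0.444 and replicates 3 and 4 at 0.512, lay within the range of the other stages. Whether such pairs share an animal or a day of collection is not given in the sources used here, so the 5 C2 arrays may hold fewer than 5 independent samples.

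The cumulus identity of the samples was checked on 7 markers, which all had a tested probe. INHA, the inhibin alpha subunit, stood at means of 10.67, 10.59 and 10.30 at NC1, C1 and C2. The expansion genes TNFAIP6, PTX3 and HAS2 rose at C2 against C1 by 6.63, 4.98 and 2.46 on the log2 scale, and FSHR, AMH and FST fell by 3.55, 2.14 and 1.49. Oocyte markers differed between the stages. The summed linear signal of the 3 oocyte markers tested of 9 (GDF9, ZP3, NLRP5) was 29.9 to 70.8 times the median probe at NC1, 4.85 to 25.9 at C1 and 3.14 to 7.61 at C2. BMP15, ZP2, ZP4, DAZL, DDX4 and ZAR1 did not pass the filter, and this sum leaves them out. Of these, ZP2, ZP4 and ZAR1 were well above background on 6 of 6 NC1 arrays, at mean levels of 3.36, 4.35 and 1.11, while ZP2 and ZAR1 were so on 0 of 5 C2 arrays and ZP4 on 1 of 5. ZP2 was about 577-fold and ZAR1 about 123-fold higher at NC1 than at C2, where their signals did not clear background. Leukocyte markers (3 of 6 tested) summed to 2.28 to 5.33 at NC1, 1.55 to 2.49 at C1 and 2.01 to 7.86 at C2, with CD14 and LYZ called at C2 against C1. CD3E did not pass the filter, but was well above background on 4 of 5 C2 arrays and on none of NC1 or C1. By the means it was about 6.83-fold higher at C2 than at C1. The endothelium markers (3 of 4 tested) summed to 0.995 to 2.17, 0.812 to 1.1 and 0.436 to 5.79 in the same order, and the theca markers (4 of 4 tested) to 114 to 243, 166 to 260 and 205 to 523. LUM rose by 3.79 at C2 against C1 (adjusted p = 5.43e-06), and of 2 tested probes of DCN the dimmer, which is not in the sum, rose by 4.08 (adjusted p = 1.17e-05) while the other changed by −0.07. The theca markers INSL3 and CYP17A1 changed by −0.78 (adjusted p = 0.0221) and −0.25 (adjusted p = 0.312) in this comparison, neither called. No red blood cell marker passed the filter, although HBB was well above background on 3 of 6 NC1, 6 of 6 C1 and 5 of 5 C2 arrays, at low mean levels of −3.41, −3.33 and −2.76. The part of other cells in the changes below was not tested, and in such bulk samples fewer cells of a type and less RNA per cell cannot be told apart.

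The probes are 60 bases long, and 3 genes carry more than 1 tested probe. The sequences are shown for these genes because the probes of CREM gave different answers, and because those of PRKACB and of PRKAR2B repeat a pattern. For each probe, 30 bases are printed as the deposited table gives them, 5′ to 3′, and capitals mark the polyadenylation hexamer AATAAA.
CREM A_73_103814, bases 16 to 45: aaagaaaatattgtattgctgtccttgaat
CREM A_73_102353, bases 16 to 45: tccaatgccacatatttgcagttcccaatc
CREM A_73_115379, bases 16 to 45: ctactgtgttgatttgtgctgcagcttttt
PRKACB A_73_109355, bases 16 to 45: agctttgtcccaatccatcaagggagtctg
PRKACB A_73_116453, bases 16 to 45: agctaggaaatgctgaaaacaactgtgttt
PRKAR2B A_73_109441, bases 16 to 45: tagtggttagtccactgagaatgtgtttgt
PRKAR2B A_73_112893, bases 27 to 56: aaatgcctgtttAATAAAgaactctgacca

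No pair of probes of the same gene shared more than 7 bases in a row, so they read different stretches of the transcript. Of the 14 probes of the 10 genes that have a sequence in the deposited table, 4 held AATAAA or the variant ATTAAA on the printed strand, those of CREB3, PKIA and PRKAR1B and the second probe of PRKAR2B. Among all tested probes 19.5% held one of these hexamers.

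At C2 stage both catalytic subunits and CREB3 were higher than at either earlier stage. CREM, by the probe that was brightest over all arrays, passed against C1 but not NC1, and CREB1 against NC1 but not C1. Of the regulatory subunits, PRKAR1A, PRKAR1B and PRKAR2B did not pass the threshold, and PRKAR2A had no tested probe. Of the 9 genes with a tested probe, 4 were called against C1 (CREM, PRKACB, CREB3 and PRKACA) and 4 against NC1 (PRKACB, CREB3, CREB1 and PRKACA), each time as a rise. All tested probes gave 15.3% of rises against C1 and 15.5% against NC1. The median change of the 9 genes was 0.53 against C1 and 0.77 against NC1 on the log2 scale, where that of all tested probes was 0.02 and 0.11. Between C1 and NC1 no member was called, and the lowest adjusted p of limma among the 9 genes was 0.601, where 8 of all probes passed and 1365 had an unadjusted p under 0.05. Both C2 comparisons use the same 5 C2 arrays.

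**Figure D1:**
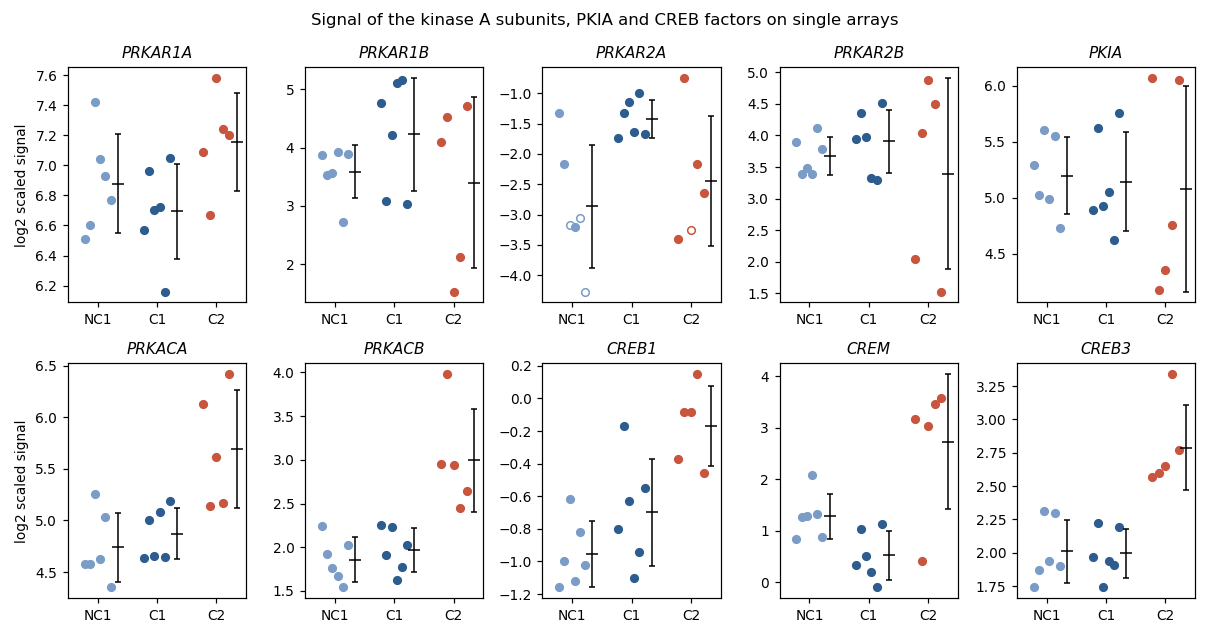
Log2 scaled signal (vertical axis, 0 is the array's median probe, a separate scale in each panel) of the 10 genes on the 6 NC1, 6 C1 and 5 C2 arrays. Points are single arrays in replicate order, open where the probe was not well above background, and bars give the mean and SD. The C2 arrays of PRKACB and CREB3 lie above all others, and those of PRKAR2B and PKIA are spread on both sides of the earlier stages. For PRKAR1B, C2 replicates 3 and 4 lie below the earlier stages and no C2 array lies above them.

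Both catalytic subunits rose. PRKACB, the beta subunit, read 1.54, 1.84 and 2.24 (lowest, median and highest log2 scaled signal) at NC1 and 1.62, 1.97 and 2.25 at C1, and 2.95, 3.98, 2.94, 2.45 and 2.64 on C2 replicates 1 to 5. Every C2 array lay above every earlier array. The rise was 1.02 ± 0.23 (SE) on the log2 scale against C1, or 2.03-fold, with an adjusted p of 0.00181, and 1.13 ± 0.23 against NC1, with an adjusted p of 0.000788. The second PRKACB probe read 3.17, 3.48 and 3.97 at C1 and 4.90, 4.90, 4.23, 4.67 and 4.86 at C2, again without overlap. Its rise was 1.20 ± 0.21 against C1 (adjusted p = 0.000142) and 1.16 ± 0.21 against NC1 (adjusted p = 0.000211). With 75th percentile scaling the first probe's rise against C1 was 0.90 and missed the threshold (adjusted p = 0.0188), as did its rise of 0.99 against NC1 (adjusted p = 0.0109), while the second probe kept both calls.

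PRKACA, the alpha subunit, had the smaller margin. Its signals were 4.64, 4.83 and 5.19 at C1, 4.35, 4.61 and 5.26 at NC1, and 6.13, 5.14, 5.62, 5.17 and 6.42 on C2 replicates 1 to 5. Replicates 2 and 4 of C2 lay within the range of the earlier stages and the other three above it. Against C1 it rose by 0.83 ± 0.24, or 1.78-fold (adjusted p = 0.00983), and against NC1 by 0.96 ± 0.24, or 1.94-fold (adjusted p = 0.00367). The call against C1 sat at the threshold. It was lost in 8 of 15 other ways of processing, with changes of 0.72 to 0.83 and adjusted p of 0.0103 to 0.0387 there, and in 13 of 17 fits that left out 1 array, all but those without NC1 replicate 3, C1 replicate 6, C2 replicate 2 or C2 replicate 4. The value without C2 replicate 5 was 0.65 (adjusted p = 0.0332) and that without C2 replicate 1 was 0.72 (adjusted p = 0.0298). Against NC1 the call was lost in 3 of 15 and in 3 of 17, without C2 replicate 5 at 0.78 (adjusted p = 0.0125), without C2 replicate 1 at 0.85 (adjusted p = 0.012) and without NC1 replicate 6 at 0.88 (adjusted p = 0.0102). On the 5 slides that carried both stages, the C2 array exceeded the C1 array of the same slide each time, by 0.49 to 1.78 for PRKACA and by 0.22 to 2.21 for PRKACB. The difference between the subunits, taken within each array, moved by 0.19 between C1 and C2 (exact permutation test, 2-sided, p = 0.693, adjusted p = 0.758 over the 8 paralog comparisons), so an unequal rise was not detected.

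The regulatory subunits did not follow as a group. PRKAR1A, the widely expressed type I subunit, read 6.51, 6.85 and 7.42 at NC1, 6.16, 6.71 and 7.05 at C1, and 7.09, 6.67, 7.58, 7.24 and 7.20 at C2. The stages overlapped, with a difference of 0.46 ± 0.21 against C1 (adjusted p = 0.0821) and 0.28 ± 0.21 against NC1 (adjusted p = 0.311). Within slides, though, its C2 array was higher on 5 of 5 slides against C1, by 0.04 to 0.86, and on 5 of 5 against NC1, by 0.07 to 0.57. Against C1 this held on 1 of 5 slides for PRKAR1B and on 3 of 5 for PRKAR2B. The other PRKAR1A probe, A_73_104710, was not well above background on any of the 17 arrays, so it gave no level.

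PRKAR1B, the type I subunit known mostly from brain, varied widely within stages. It read 2.73, 3.72 and 3.92 at NC1 and 3.04, 4.49 and 5.16 at C1, and at C2 it split into 4.09, 4.53 and 4.72 on replicates 1, 2 and 5 and 1.53 and 2.12 on replicates 3 and 4. The latter are lower than any NC1 or C1 array. The mean difference of −0.83 ± 0.55 against C1 did not pass (adjusted p = 0.242). Replicates 3 and 4 were also the C2 arrays scanned on the second of 2 scan days, and the mean difference from C1 was 0.13 among arrays of the first day and −2.31 among those of the second. With scan day as a block PRKAR1B was still not called. The part of scan day was not tested.

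PRKAR2B, the type II subunit that prevails in many hormone-responsive cells, also split within C2, with its low values on other arrays than those of PRKAR1B. At NC1 it read 3.39, 3.64 and 4.12, and at C1 3.30, 3.96 and 4.51. On C2 replicates 1 and 5 it read 2.05 and 1.53, below every earlier array, while replicates 2, 3 and 4 read 4.04, 4.88 and 4.49. The second probe, A_73_112893, gave the same split, with 6.06 and 6.00 on replicates 1 and 5 against 7.30, 8.15 and 8.26 on replicates 2, 3 and 4, and a lowest earlier array of 7.14. The SD within C2 was thus 1.51 and 1.09 for the 2 probes, against 0.51 and 0.32 within C1. The mean differences from C1 of −0.51 ± 0.48 and −0.41 ± 0.37 did not pass (adjusted p = 0.425 and 0.404), and the groups of arrays overlapped. The direction turned with scan day on both probes, from −1.38 on the first day to 0.80 on the second and from −1.07 to 0.61. C2 replicate 2, also scanned on the first day, read within the C1 range on both probes. The part of scan day was not tested.

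PRKAR2A, the other type II subunit, was dim. Its probe was well above background on 3 of 6 NC1, 6 of 6 C1 and 4 of 5 C2 arrays and did not pass the filter. It read −4.27, −3.11 and −1.32 at NC1, −1.74, −1.49 and −0.99 at C1, and −3.41, −0.75, −3.25, −2.17 and −2.64 at C2. In a fit of all 21475 probes the adjusted p was 0.105 against C1 and 0.532 against NC1. A second probe named for an expressed sequence tag was well above background on 6 of 6 C1 and 0 of 5 C2 arrays. By measured means of −3.70 and −4.72 its signal was 2.03-fold higher at C1 than at C2, with an adjusted p of 0.0241 in the unfiltered fit. For such folds each array of the dimmer stage stands at its own value or, where higher, at its dimmest probe that cleared background. Here every C2 array stood at its own value. For the type I pair, PRKAR1B minus PRKAR1A, the within-array difference moved by −1.29 between C1 and C2 (exact permutation test, p = 0.186, adjusted p = 0.733). For the type II pair it moved by 0.52 (exact permutation test, p = 0.494, adjusted p = 0.733), with PRKAR2A near background, and the sign changed to −0.31 under normexp background correction. Within scan days the type II pair moved by −0.58 on the first and 2.14 on the second, and the type I pair by −0.27 and −2.93.

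PKIA, the inhibitor, gave means of 5.20 ± 0.35 (SD, n = 6) at NC1, 5.15 ± 0.45 (n = 6) at C1 and 5.08 ± 0.92 (n = 5) at C2. The difference from C1 was −0.06 ± 0.34 (adjusted p = 0.894). The C2 arrays were not near this mean. Replicates 1 and 5 read 6.07 and 6.05, above the highest earlier array at 5.76, and replicates 2 and 3 read 4.17 and 4.35, below the lowest at 4.62, with replicate 4 at 4.76. Replicates 1 and 5 were thus the arrays with the highest PKIA and PRKACA and the lowest PRKAR2B.

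**Figure D2:**
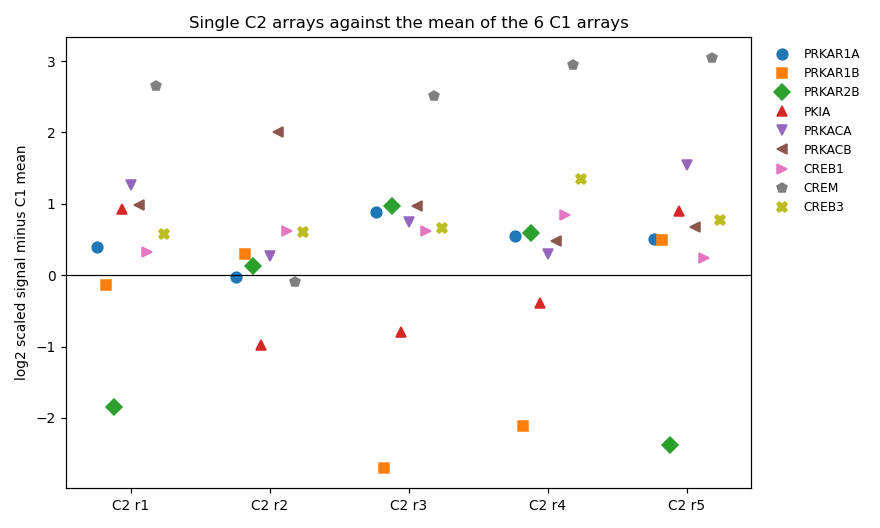
Log2 scaled signal of 9 genes on each of the 5 C2 arrays (horizontal axis, replicates 1 to 5), minus the mean of the 6 C1 arrays of the same probe, which is the line at 0. PRKAR2B lies far below 0 on replicates 1 and 5, PRKAR1B on replicates 3 and 4, and CREM is near 0 on replicate 2 only.

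CREM, the cAMP response element modulator, had the largest change among the members. From an internal promoter this gene also gives the inducible repressor ICER. Its brightest probe over all arrays, C2 included, was A_73_103814. This probe read 0.85, 1.27 and 2.08 at NC1 and −0.10, 0.43 and 1.13 at C1. On C2 replicates 1 to 5 it read 3.17, 0.42, 3.03, 3.47 and 3.57. At C2, 4 of the 5 arrays exceeded all earlier arrays, and replicate 2 lay inside the C1 range. The rise was 2.21 ± 0.44 against C1, or 4.62-fold (adjusted p = 0.000602), and 1.45 ± 0.44 against NC1 (adjusted p = 0.0133, not called). Without C2 replicate 2 these changes were 2.79 (adjusted p = 2.86e-07) and 2.03 (adjusted p = 1.07e-05, called). The rise against NC1 also passed under normexp background correction, at 1.44 (adjusted p = 0.00704), and with array weights, at 1.70 (adjusted p = 0.00194).

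The probe A_73_102353 behaved alike. It read 2.15, −0.25, 2.72, 2.96 and 2.25 at C2, where NC1 spanned −0.16 to 1.02 and C1 −0.90 to 0.04, and again replicate 2 alone lay within the earlier range. Its change was 2.49 ± 0.42 against C1, or 5.63-fold (adjusted p = 0.000117), and 1.72 ± 0.42 against NC1 (adjusted p = 0.00315). The call against NC1 was lost without C2 replicate 3, at 1.53 (adjusted p = 0.0109), and without C2 replicate 4, at 1.47 (adjusted p = 0.0114). It was also lost with only the 2 stages in the fit (adjusted p = 0.0151), and with replicates 1 and 5 and replicates 3 and 4 of C2 averaged, at 1.35 (adjusted p = 0.0366). The third probe, A_73_115379, did not pass, with 0.39 ± 0.28 against C1 (adjusted p = 0.274) and 0.22 ± 0.28 against NC1 (adjusted p = 0.565). Its C2 arrays read 1.78, 0.29, 0.99, 1.56 and 1.87, so that the lowest array was replicate 2 here as well. The array files give 1 RefSeq transcript for the 3 probes, and which transcript variants each one reads was not examined.

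**Figure D3:**
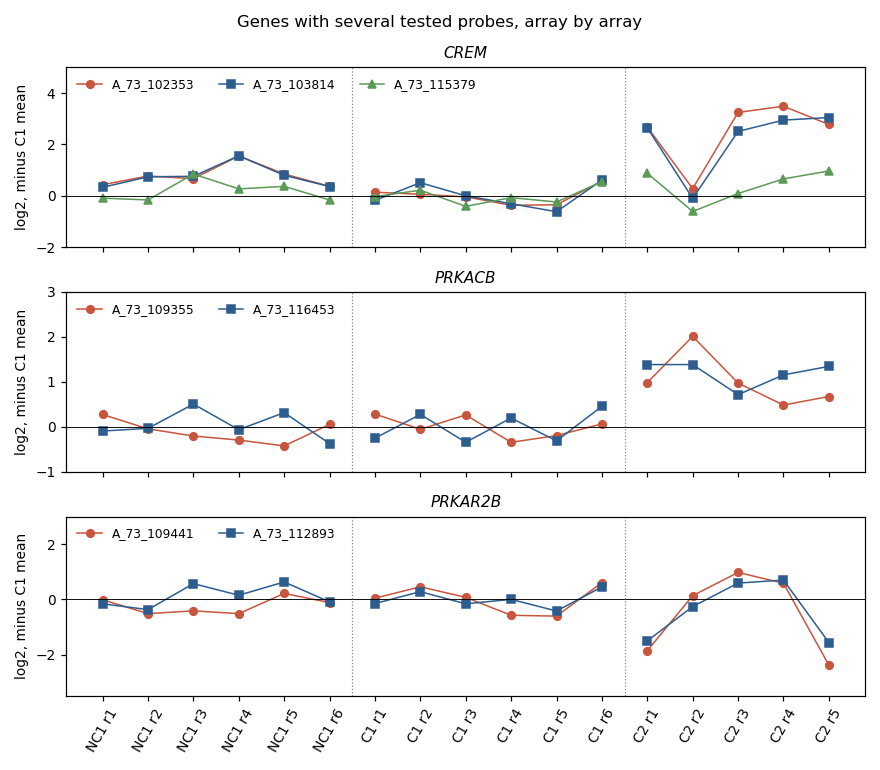
Log2 scaled signal of each tested probe of CREM, PRKACB and PRKAR2B on the 17 arrays (horizontal axis, stage and replicate), minus the probe's own C1 mean. In CREM, 2 of the 3 probes rise together on 4 C2 arrays and drop back on replicate 2, and in PRKAR2B both probes fall on C2 replicates 1 and 5.

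CREB1, the best known target of the kinase among transcription factors, read −1.16, −1.01 and −0.62 at NC1, −1.10, −0.72 and −0.17 at C1, and −0.37, −0.08, −0.08, 0.15 and −0.46 at C2. The C2 arrays lay above all NC1 arrays but overlapped with C1. The change was 0.79 ± 0.18 against NC1, or 1.73-fold (adjusted p = 0.0021), and 0.53 ± 0.18 against C1 (adjusted p = 0.0262, not called). Under normexp background correction the rise against NC1 was 0.43 (adjusted p = 0.0285), and without C1 replicate 2 the rise against C1 was 0.64 and passed (adjusted p = 0.00847). The NC1 arrays also had the most oocyte marker signal, and its part in this difference was not tested. The probe of CREB1 named for an expressed sequence tag went the other way. It was well above background on 4 of 6 NC1, 4 of 6 C1 and 0 of 5 C2 arrays. By measured means of −3.49 and −4.86 it was 2.58-fold higher at NC1 than at C2 (adjusted p = 0.00371 in the unfiltered fit). These signals are near background. For CREM minus CREB1, the within-array difference rose by 1.68 between C1 and C2 (exact permutation test, p = 0.0303), which did not hold after adjustment over the 8 comparisons (adjusted p = 0.242), and the 0.66 against NC1 gave p = 0.32 in the same exact test.

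CREB3, also called Luman, is a factor of the same superfamily that is anchored in the membrane of the endoplasmic reticulum until it is cleaved. It had the steadiest change of all members. NC1 read 1.74, 1.92 and 2.31, C1 read 1.74, 1.96 and 2.22, and C2 replicates 1 to 5 read 2.57, 2.60, 2.65, 3.34 and 2.77. No C2 array overlapped with an earlier one. The rise was 0.79 ± 0.18 against C1 (1.73-fold, adjusted p = 0.00147) and 0.77 ± 0.18 against NC1 (1.71-fold, adjusted p = 0.00178). Both calls held in 15 of 15 other ways of processing, at 0.63 to 0.83, and in 17 of 17 fits that left out 1 array.

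For PRKACB and CREB3, and for CREB1 against NC1, the exact permutation test of the stage means gave 0.00433, the smallest p that 5 arrays against 6 allow. Of the 9 genes, 2 did not overlap between C2 and C1 and 3 between C2 and NC1, where 21.6% and 20.9% of all tested probes did not. With 9 genes these shares, 22.2% and 33.3%, stand near those of the array as a whole.

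**Figure D4:**
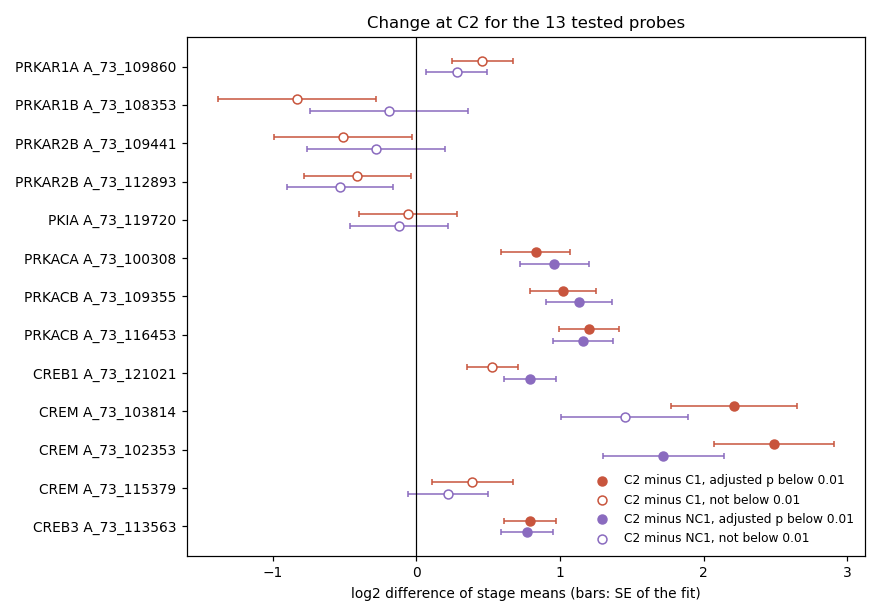
Change at C2 (horizontal axis, log2 difference of stage means, bars are the SE of the limma fit) for the 13 tested probes of 9 genes, against C1 and against NC1. Filled points passed an adjusted p of 0.01. The probes of PRKACA, PRKACB and CREB3 are filled for both comparisons, and those of PRKAR1A, PRKAR1B, PRKAR2B and PKIA for neither.

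Other genes of the pathway were counted in lists of their textbook functions. Of 57 genes with a tested probe in 7 lists, 15 rose and 8 fell at C2 against C1, and the median change was 0.14. Among all tested probes 15.3% rose and 12.8% fell, and the counts in lists as small as these are descriptions beside those shares. Among the genes of cAMP synthesis (10 tested of 14), 4 rose and 1 fell, with a median of 0.51. ADCY1, an adenylyl cyclase stimulated by calcium and calmodulin, dropped by 5.64 ± 0.64 (adjusted p = 1.6e-06) from a C1 mean of 4.12 ± 0.44 (SD, n = 6) to −1.52 ± 1.20 (n = 5). The cyclases ADCY7 and ADCY4 rose by 2.80 and 1.56, and GNAI1, an inhibitory G protein subunit, by 1.47 (adjusted p = 2.13e-06). The C2 replicate 2 of ADCY7, at −3.12, lay within the C1 range, and the change of ADCY7 against NC1 was 1.39 (adjusted p = 0.0449, not called). GNAS, the stimulatory G protein subunit, was not called by its brightest probe (0.20, adjusted p = 0.41), while its other probe dropped by 1.34 (adjusted p = 0.00639). Among the phosphodiesterases that break down cAMP (10 tested of 16), none rose and 2 fell, PDE2A by 2.20 and PDE8A by 1.18, with a list median of −0.09. PDE8B and PDE3B did not pass the filter and were singled out after their values were seen. PDE8B was well above background on 6 of 6 NC1, 6 of 6 C1 and 3 of 5 C2 arrays. Its mean was 0.19 at C1 and −3.90 at C2 (adjusted p = 3.42e-09 in the unfiltered fit). PDE3B, well above background on 3 of 6 C1 and 3 of 5 C2 arrays, changed by 2.14 (adjusted p = 0.0176 in that fit). PDE3A changed by 0.50 (adjusted p = 0.402) and PDE4D by 0.68 (adjusted p = 0.204).

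Of the A-kinase anchoring proteins, which tether the kinase through its regulatory subunits, 4 of 10 tested rose and none fell, with a median of 0.56. AKAP4, known from the sperm tail, rose by 3.70 ± 0.63 (adjusted p = 0.000127), with C2 values from 2.39 to 7.28. AKAP13 rose by 2.36 ± 0.17 (adjusted p = 8.36e-09), and its second probe by 1.92, just outside the threshold (adjusted p = 0.0101). AKAP11 rose by 2.15 and AKAP12, or gravin, by 1.87. AKAP9 was not called by its brightest probe (0.14, adjusted p = 0.669), while another of its probes rose by 1.57 (adjusted p = 0.00101). AKAP6 did not pass the filter and was singled out after its values were seen. It cleared background on 4 of 5 C2 arrays and on no NC1 or C1 array. Its mean was −5.44 at C1 and −2.48 at C2 (adjusted p = 7.7e-05 in the unfiltered fit). AKAP2, AKAP3 and AKAP5, also outside the filter, changed by −0.98, 0.20 and −0.62 (adjusted p = 0.123, 0.663 and 0.104 in that fit).

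The other inhibitors and cAMP effectors held the largest rise among the tested genes of these lists. PKIB, the beta form of the kinase inhibitor, read −2.03 to 1.17 at C1 and 4.92, 3.94, 5.43, 5.92 and 4.70 on C2 replicates 1 to 5. Its rise was 5.30 ± 0.55 against C1 (adjusted p = 5.05e-07) and 4.47 against NC1 (adjusted p = 3.8e-06), where PKIA showed no call. PKIG, another inhibitor in this list, changed by −1.12 against C1 (adjusted p = 0.0991, not called). Of the list (3 tested of 6), 1 rose and 1 fell, with a median of −1.12. RAPGEF3 (EPAC1), a cAMP-activated exchange factor for Rap, dropped by 1.37 ± 0.24 (adjusted p = 0.00017). RAPGEF4 (EPAC2) was well above background on 4 of 5 C2 arrays and on no NC1 or C1 array. Its mean at C2 was about 26.7-fold higher than at C1, with measured means of −1.24 and −5.98 (adjusted p = 0.000353 in the unfiltered fit).

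Among the other CREB and ATF1 factors (7 tested of 8), 3 rose and 2 fell, with a median of 0.78. CREB3L1, a membrane-anchored relative of CREB3, rose by 3.53 ± 0.85 (adjusted p = 0.00289), with C2 replicate 2 at −1.89 among the C1 values. CREB5 rose by 1.90 and CREB3L2 by 0.85, although the second probe of CREB3L2 changed by 0.33 (adjusted p = 0.275). Against NC1 the brightest probe of CREB3L2 changed by 0.64 (adjusted p = 0.0258, not called). CREBZF and CREB3L4 dropped by 1.48 and 1.47. Of the coactivators and SIK kinases (6 tested of 8), CRTC3, a coactivator of CREB, rose by 0.78 (adjusted p = 0.00581) and SIK2, a kinase that keeps such coactivators out of the nucleus, dropped by 1.38 (adjusted p = 0.00146). The list median was −0.15.

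Of the genes that are known to respond to cAMP (11 tested of 13), 2 rose and 1 fell, with a median of −0.08, a share near that of all tested probes. RGS2, a brake on G protein signalling, rose by 4.64 ± 0.43 (adjusted p = 1.53e-07), and GEM, a small GTPase, by 1.24. Against NC1 the changes were smaller, 2.46 for RGS2 (adjusted p = 0.000192) and 0.77 for GEM (adjusted p = 0.0181, not called). NR4A1, an immediate early nuclear receptor, dropped by 1.82 ± 0.36 (adjusted p = 0.000553). AREG, the EGF-like factor amphiregulin, was singled out after its values were seen. It did not pass the filter because it was well above background on 1 of 6 NC1 and 1 of 6 C1 arrays. On C2 it was so on 5 of 5 arrays, and its mean was −5.77 at C1 and 1.96 at C2 (adjusted p = 1.79e-06 in the unfiltered fit). NR4A3, the other gene of this list that did not pass the filter, was lower at C2. Its probe cleared background on every NC1 and C1 array but on 3 of 5 C2 arrays. The mean of NR4A3 was −1.11 at NC1, −1.68 at C1 and −3.40 at C2. For the drop from C1 the unfiltered fit gave an adjusted p of 0.0156, and for that from NC1 0.00229. In none of the 7 lists did a gene pass between C1 and NC1.

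**Figure D5:**
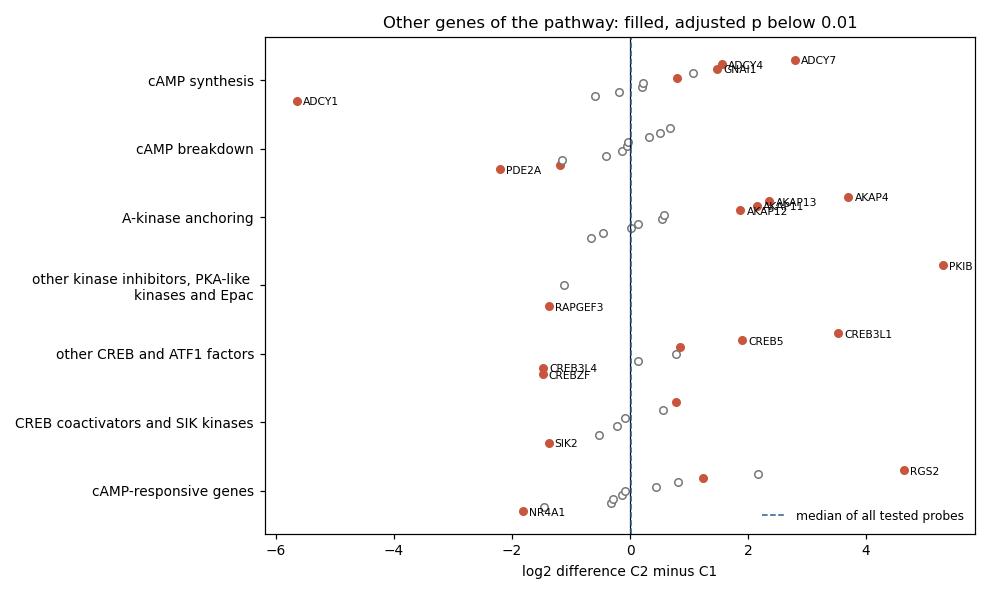
Change at C2 against C1 (horizontal axis, log2 difference) of each tested gene in 7 lists of the pathway. Filled points passed an adjusted p of 0.01, and the dashed line is the median of all tested probes. PKIB and RGS2 lie far to the right and ADCY1 far to the left.

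The profile of CREM over the 17 arrays was compared with those of 8892 other tested probes of named genes. The closest were SH3KBP1 (Pearson's r = 0.949), SLC35F5 (r = 0.947), METTL21A (r = 0.943), KATNBL1 (r = 0.942) and RGS19 (r = 0.942), and these genes rose at C2 against C1 by 1.28 to 1.94. The arrays share the stage difference, so these values describe likeness alone. No member was called as lower at C2, so no profile of a falling member was compared.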

How the data were processed

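Cy3-labelled cumulus cell RNA of 17 samples (6 NC1, 6 C1, 5 C2) was read on Agilent bovine arrays. The authors deposited the scanner output, with a background-corrected intensity per spot from Agilent Feature Extraction 10.5.1.1 that is not scaled between arrays. A further table deposited by the authors holds log2 values scaled to each array's median, and served for probe sequences and as an alternative.

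From the intensities, the log2 signals of a probe's clean spots were averaged and the array's median was subtracted. Spots counted as present where they cleared background and were neither saturated nor non-uniform. Stages were compared in limma 3.58.1 (R 4.3.3), all 3 in 1 fit, and the SE is that of the fitted difference. Single genes and within-array differences were compared by exact permutation tests over arrays (Python 3.11.15).

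A gene with several tested probes counts by its brightest one. For the members the brightest probe was taken over all arrays, C2 included. For PRKACB and PRKAR2B, this was taken among the probes found by gene symbol, and the brighter probes named for an expressed sequence tag gave the same calls. From each pathway list the up to 3 largest called rises and falls at C2 against C1 were named, and PDE3A, PDE4D, AKAP12, NR4A1 and RAPGEF4 in any case. The members and lists were chosen with earlier results of these data known. Symbols were brought up to date through a RefSeq list (ARS-UCD2.0). No build is named in the array files, and coordinates are left out.

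Alternatives were other scalings, background corrections, filters and blocks (slide, scan day, replicate number), array weights, the deposited table, 2 stages in the fit, all spots averaged, probe means, the methods' one-factor test and leaving out each array. Averaging the closest pairs of C2 arrays was chosen after seeing the data.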

Additional observations from a re-analysis of the deposited data

Results flagged for a closer look

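In 7 of 111 stage groups examined, 1 array lay far from the others, by a test that chance alone passes in about 1 of 20 groups. The figure given is the gap to the nearest array as a share of the group's whole range. On C2 replicate 2, CREM was low by both probes that rose, at −0.25 where the next array read 2.15 (0.75 of the range) and at 0.42 where the next read 3.03 (0.827), and ADCY7 was low at −3.12 where the next read 0.03 (0.857). CREB3 was highest on C2 replicate 4, at 3.34 where the next array read 2.77 (0.739). PDE8A was lowest on C2 replicate 3, at −1.63 where the next read −0.98 (0.759), and CREBZF on C2 replicate 5, at 1.59 where the next read 2.24 (0.828). PRKAR1B was lowest on NC1 replicate 5, at 2.73 where the next array read 3.53 (0.678).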

How the results depend on the processing

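Under 15 alternatives, and when each of the 17 arrays was left out, the counts of called probes and of called members at C2 stayed within 1.5 times those reported. With the closest C2 arrays averaged they were 2989 and 2923 probes and 3 members in each comparison. The members called were 3 or 4 against C1 and 3 to 5 against NC1, each a rise. The 8 probes called between C1 and NC1 became 25 without a filter, 2 with slide as a block, 239 with array weights (whose estimate stopped before converging) and 77 with 2 stages in the fit, and 1 to 19 when 1 array was left out. Replicate numbers did not pair the arrays (correlations of −0.32 to 0.25 over 16 pairs of deviations). With the replicate block, 3202 and 3088 probes were called at C2 against C1 and NC1, 0 between C1 and NC1, and 3 members in each C2 comparison, PRKACA being lost (0.82 with adjusted p = 0.0291, and 0.95 with adjusted p = 0.0141).

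Scaling moved the median of all probes. At C2 against C1 it was 0.02 with the array median and −0.11 with the 75th percentile, and against NC1 0.11 and −0.04. Rises and falls called against NC1 were 2152 and 1741, but 2468 and 1200 under normexp background correction and 2083 and 2491 under 75th percentile scaling. Signs turned only for uncalled changes. Under normexp these were PRKAR1B and PKIA against NC1 at C2 (0.02 and 0.10), and, at C1 against NC1, PRKAR1A (0.14), CREB3 (0.19), PKIA (0.26), the third CREM probe (0.01) and the second probes of PRKAR2B (0.23) and PRKACB (0.24). Among paralogs, PRKAR2B minus PRKAR2A against C1 turned to −0.31 and PRKACB minus PRKACA against NC1 to −0.02. With array weights PKIA turned at C2 (0.48 against C1, 0.39 against NC1), as did PRKAR1B (0.08 against NC1) and CREB3 between C1 and NC1 (0.01). Leaving out 1 array, PKIA ranged over −0.31 to 0.17 against C1, −0.36 to 0.11 against NC1 and −0.18 to 0.05 between C1 and NC1. PRKAR1B ranged over −0.52 to 0.28 and PRKAR2B over −0.65 to 0.19 against NC1, and CREB3 over −0.07 to 0.04 and the second PRKACB probe over −0.13 to 0.05 between C1 and NC1. The paralog differences ranged over −0.87 to 0.11 (PRKAR1B minus PRKAR1A against NC1), −0.05 to 0.94 (PRKAR2B minus PRKAR2A against C1), and −0.19 to 0.46 and −0.21 to 0.44 (PRKACB minus PRKACA against C1 and NC1). The cause of these turns was not tested. The number of arrays limits the precision throughout.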
